A study of Rattus norvegicus with 110 samples.

Results

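Ribosome biogenesis genes were followed in RNA-seq of F2 male Sprague Dawley rats with and without CCl4 treatment and with and without treated ancestors. Members were the genes with a symbol in the study's listing of ancestry-associated genes that starts with Nop, Nol, Noc, Utp, Rrp, Rrs, Polr1, Rpf, Tsr, Gnl, Ddx or Wdr, or that stands on a fixed list of ribosome biogenesis symbols. The rule found 56 genes among 1568 identifiers with a symbol and 31998 identifiers in the count tables. Of these, 41 were assigned a role in ribosome biogenesis. The other 15 were counted as matches by name alone, such as Wdr1 (actin turnover) and Ddx17 (RNA splicing and transcription). That assignment was made by main function and does not exclude a lesser role. All 56 passed the filter on low counts. The listing itself was made from these samples: 55 members were in it for a difference with F0 treatment in liver, and Wdr33 for a difference with F0 treatment in kidney. Therefore the F0 difference in liver is given here as a description only, and the tests concern F2 dose, its dependence on ancestry, F1 treatment, kidney and the contrast between organs.

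Ribosomes are built in the nucleolus. RNA polymerase I transcribes a long precursor rRNA, small nucleolar ribonucleoproteins (snoRNPs) guide its chemical modification, and separate sets of assembly factors fold, cut and export the small and the large subunit. These steps consume much of the energy of a growing cell, and in the liver they are known to accompany the regrowth that follows loss of hepatocytes.

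F0 and F1 males received olive oil or 50% (v/v) CCl4, a solvent that injures hepatocytes and leads to fibrosis, by oral gavage for 6 weeks, and were mated with untreated females after 2 weeks of recovery. Cohort A had no treated ancestor, cohort B a treated F1 sire, cohort C a treated F0 grandsire and cohort D both. F2 males of each cohort received olive oil (vehicle), 8% CCl4 (low dose) or 50% CCl4 (high dose) at 0.5 mL/kg, 3 times a week, and were sampled on day 39, a day after the last dose. The liver data comprise 83 libraries in 12 groups, of 7 males each except the vehicle group of cohort C with 6. The kidney data comprise 27 libraries, from the same 27 vehicle males whose livers were sequenced. Rats were outbred, all ancestral exposure was paternal, and males of a cohort shared sires: littermates from 1 F1 sire were spread over the 3 doses.

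Liver libraries held between 31638559 and 51343589 counts, and kidney libraries between 21961746 and 35055218. Between-library scaling factors (TMM) differed with dose in liver, with medians of 0.844 in vehicle, 0.956 in low-dose and 1.25 in high-dose livers and a range of 0.947 to 1.92 among the latter. Without these factors the median log2 difference of all genes tested moved from 0.01 to 0.62 for the high dose, so differences below are relative to the scaled library. A vehicle male of cohort C stood apart from the other vehicle livers, and a high-dose male of cohort D had the highest scaling factor: without the one the high dose called 35 members and without the other 36, beside 35 with both. Few cell markers had an identifier. Tat, an enzyme of hepatocytes, was lower in kidney than in liver (log2 difference -12.13), Lrp2, a receptor of kidney tubules, was higher (7.27) as the tissue labels would have it. With the high dose, Tat had a log2 difference of -0.12 that did not pass. The macrophage gene Adgre1 was higher (0.39) while Cd163 had a log2 difference of 0.02. The endothelial gene Kdr was lower (log2 -1.05), and Lrp2 was higher in liver (0.22). No marker chosen here for cholangiocytes, stellate cells or lymphocytes had an identifier. Slc10a2, which the paper reports in cholangiocytes, stood in the listing but was not among the chosen markers. How cell composition moved with the results was therefore not tested. In bulk tissue fewer cells of a type and less RNA per cell cannot be told apart.

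The high dose of CCl4 was accompanied by modestly higher levels of many ribosome biogenesis genes, and the snoRNP genes Nop58, Gar1 and Nop56 had the largest differences. Over the 4 cohorts, 35 of 56 members differed between high dose and vehicle (62.5%), against 72.2% of all genes tested (adjusted p under 0.1, edgeR quasi-likelihood test with Benjamini-Hochberg adjustment over all genes). Of the 41 members with a role, 23 were higher, 4 were lower and 14 did not pass. In all genes, 37.8% were called higher and 34.4% lower. The median log2 fold change of the 41 was 0.15, beside 0.01 for all genes, while the median absolute log2 fold change was 0.16 for the 41 and 0.49 for all genes. The members thus moved by small amounts, and mostly upward. Over the 4 cohorts together no member had an absolute log2 fold change over 1. Within single cohorts, where the study added that limit to the adjusted p, 1 member passed, Nop58 with the high dose in cohort D. With litter as a replicate block the high dose called 30 members: Nolc1, Wdr12, Rrp1b, Nol10, Ddx10 and Wdr24 no longer passed, with adjusted p from 0.102 to 0.174, and Utp25 did (log2 -0.11, adjusted p = 0.0974). Without scaling factors all 56 members were called higher, where 89.3% of all calls were, and 29 of the 41 stood above the median of all genes with and without these factors.

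**Figure D1:**
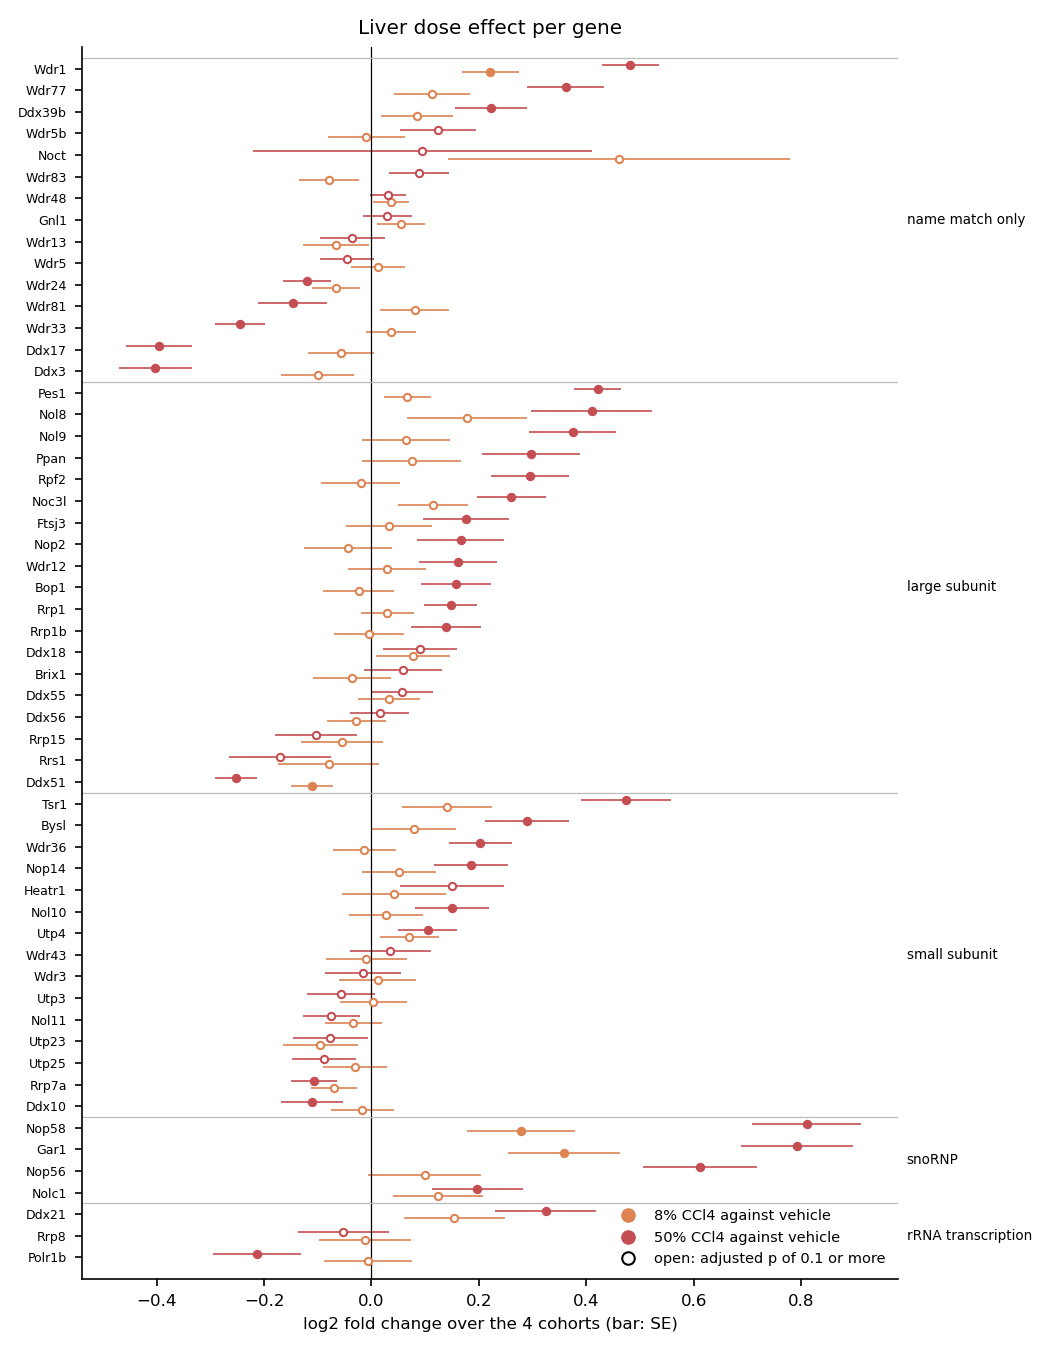
Log2 fold change of each of the 56 members in liver over the 4 cohorts (x axis, bars show the SE) for 8% CCl4 (orange) and 50% CCl4 (red) against vehicle. Filled points passed an adjusted p of 0.1. The high dose called 35 members and the low dose 4, and Nop58 and Gar1 lie farthest to the right at 0.81 and 0.79.

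All 4 snoRNP members were higher with the high dose. Nop58 (ENSRNOG00000016486.6) is a core protein of box C/D snoRNPs, which guide 2′-O-methylation of rRNA. Its level ran from 12.9 to 28.4 CPM (counts scaled to a common library size) in 27 vehicle livers with a median of 18.9, from 14.9 to 38.8 with a median of 22.1 in 28 low-dose livers and from 14.2 to 58.9 with a median of 31.04 in 28 high-dose livers. The 3 dose groups overlapped, and the highest libraries were high-dose livers. The high dose raised Nop58 1.75-fold (log2 0.81 ± 0.10 SE, adjusted p = 6.01e-11). Gar1 (ENSRNOG00000061146.2) belongs to box H/ACA snoRNPs, which guide pseudouridylation. It ran from 2.01 to 5.66 CPM in vehicle livers (median 3.36), from 2.68 to 6.94 (median 3.93) with the low dose and from 2.70 to 10.2 (median 5.84) with the high dose. Vehicle and high-dose ranges overlapped, but the median of the high dose lay above the highest vehicle liver. Gar1 was 1.73-fold higher with the high dose (log2 0.79 ± 0.10, adjusted p = 2.93e-10).

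Nop56, the partner of Nop58 in box C/D particles, had medians of 21.5 CPM in vehicle, 21.1 in low-dose and 29.8 in high-dose livers, with ranges of 15.1 to 32.0, 14.9 to 52.0 and 14.9 to 63.6. The lowest values were alike at all doses. The highest low-dose value came from 1 liver of cohort A, and the next was 30.8, within the vehicle range, so that the upper end extended beyond 1 library with the high dose only. The high dose raised it 1.53-fold (log2 0.61 ± 0.11, adjusted p = 4.54e-07). Nolc1, a nucleolar chaperone of snoRNPs, had the smallest change of this group, with medians of 38.2, 41.6 and 40.4 CPM in vehicle, low-dose and high-dose livers and a log2 fold change of 0.20 ± 0.08 with the high dose (adjusted p = 0.0324, or 0.102 with the litter block).

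**Figure D2:**
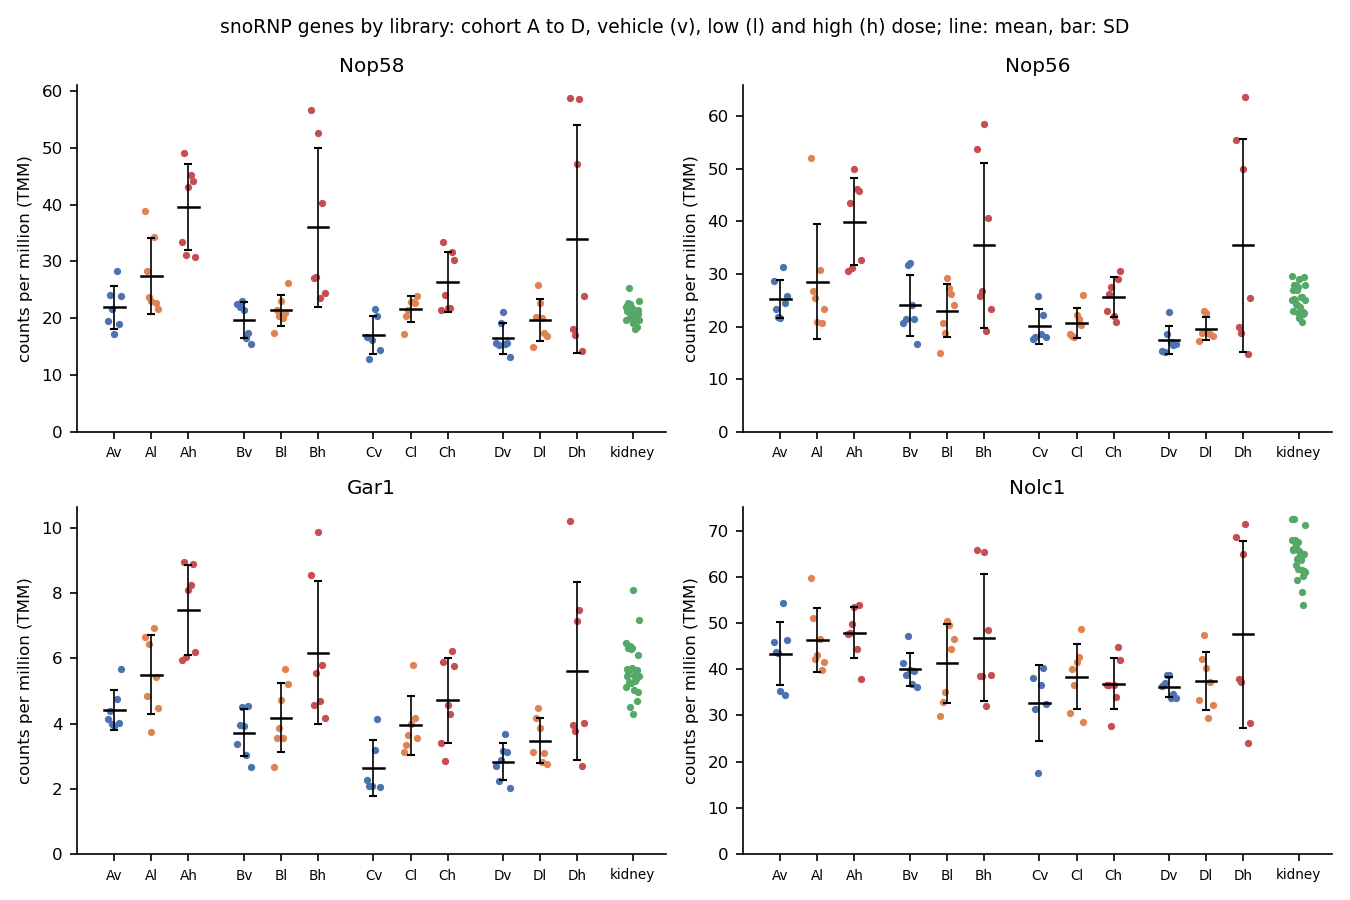
CPM (TMM-scaled, y axis from 0) of Nop58, Nop56, Gar1 and Nolc1 in each liver library by cohort (A to D) and dose (v vehicle, l low, h high), with the mean as a line and the SD as a bar, and in the 27 kidneys (green, scaled among kidneys). Nop58 reached 58.9 CPM in high-dose livers against at most 28.4 in vehicle livers, and cohort D high-dose livers were spread from 14.2 to 58.9.

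Among 19 members of large-subunit assembly, 12 rose with the high dose, 1 fell and 6 did not pass, so that 63.2% were called higher, beside 37.8% of all genes. Pes1 (ENSRNOG00000004515.4) forms the PeBoW complex with Bop1 and Wdr12, needed to process the precursor of 28S rRNA. Pes1 ran from 27.7 to 40.5 CPM in vehicle livers (median 32.2), from 28.7 to 40.3 (median 33.7) with the low dose and from 32.4 to 57.5 (median 44.9) with the high dose. Vehicle and low-dose livers covered nearly the same range, and high-dose livers reached above both. Its 1.34-fold rise had the smallest adjusted p of all members (log2 0.42 ± 0.04, adjusted p = 9.63e-14). The other 2 PeBoW genes rose less, with log2 fold changes of 0.16 ± 0.07 for both Bop1 (adjusted p = 0.0301) and Wdr12 (adjusted p = 0.0428, or 0.151 with the litter block). Nol8 (log2 0.41 ± 0.11), the rRNA kinase gene Nol9 (0.37 ± 0.08), Ppan (0.30 ± 0.09), Rpf2 (0.30 ± 0.07) and Noc3l (0.26 ± 0.06) also rose, with adjusted p between 4.17e-05 and 0.00312. Nol8 was listed under more than 1 symbol, as were Heatr1 and Wdr77, so reads may be shared with copies of these genes.

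The RNA helicase gene Ddx51 went the other way from its group. It ran from 8.12 to 11.5 CPM in vehicle livers (median 9.67), from 7.16 to 10.2 (median 8.68) with the low dose and from 6.62 to 9.53 (median 8.29) with the high dose. It was lower with the high dose by a log2 fold change of -0.25 ± 0.04 (adjusted p = 2.77e-08). Rrs1 and Rrp15 also had estimates below 0, at -0.17 ± 0.09 (adjusted p = 0.104) and -0.10 ± 0.08 (adjusted p = 0.229), and did not pass.

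Of 15 members of small-subunit assembly, 6 rose with the high dose, 2 fell and 7 did not pass. The share called higher was 40%, near the 37.8% of all genes, and the difference from the large-subunit members was not tested. Their median log2 fold change was 0.04. Tsr1 (ENSRNOG00000002980.7), a GTPase-like factor that caps late small-subunit precursors in the cytoplasm, ran from 18.2 to 49.2 CPM in vehicle livers (median 31.8), from 25.3 to 59.4 (median 36.7) with the low dose and from 24.5 to 68.5 (median 47.1) with the high dose. The ranges overlapped, and the median of high-dose livers lay near the top of the vehicle range. Tsr1 rose 1.39-fold (log2 0.47 ± 0.08, adjusted p = 8.08e-07). Bysl (log2 0.29 ± 0.08, adjusted p = 0.000867) and the processome factors Wdr36 (0.20 ± 0.06, adjusted p = 0.0016) and Nop14 (0.18 ± 0.07, adjusted p = 0.0142) rose less. Rrp7a (log2 -0.11 ± 0.04, adjusted p = 0.0222) and Ddx10 (-0.11 ± 0.06, adjusted p = 0.0867, or 0.174 with the litter block) were lower.

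The 3 members of rRNA transcription and nucleolar regulation did not move as a group. Ddx21, a nucleolar helicase that acts in polymerase I transcription, ran from 28.8 to 93.5 CPM in vehicle (median 67.0) and from 38.9 to 133 in high-dose livers (median 78.3), and rose by a log2 fold change of 0.32 ± 0.09 (adjusted p = 0.00172). Polr1b, the second largest subunit of RNA polymerase I, ran from 7.19 to 27.9 CPM in vehicle (median 18.9) and from 8.10 to 26.0 in high-dose livers (median 15.9), and was lower by a log2 fold change of -0.21 ± 0.08 (adjusted p = 0.0179). The rRNA methyltransferase gene Rrp8 had a log2 fold change of -0.05 ± 0.08 (adjusted p = 0.600). Ddx51, Polr1b, Rrp7a and Ddx10 were lower relative to the scaled library only, and had values above 0 without scaling factors.

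Among the 15 genes that match by name alone, 3 rose with the high dose (20%), 5 fell and 7 did not pass. Of all genes, 37.8% were called higher and 34.4% lower. Wdr1, a cofactor of actin disassembly, ran from 57.3 to 78.0 CPM in vehicle (median 67.2), from 65.9 to 106 in low-dose (median 76.9) and from 68.0 to 151 in high-dose livers (median 92.6). The lowest high-dose library thus lay above the median of vehicle livers. It rose 1.40-fold (log2 0.48 ± 0.05, adjusted p = 6.66e-13). Wdr77, a partner of the arginine methyltransferase Prmt5, and the mRNA export helicase gene Ddx39b rose by log2 0.36 ± 0.07 and 0.22 ± 0.07. The helicase genes Ddx3 (log2 -0.40 ± 0.07, adjusted p = 2.64e-07) and Ddx17 (-0.40 ± 0.06, adjusted p = 3.48e-08) and the polyadenylation factor gene Wdr33 (-0.24 ± 0.05, adjusted p = 3.1e-06) fell, as did Wdr81 and Wdr24, the latter without passing under the litter block (adjusted p = 0.155). Without scaling factors these 5 genes too had values above 0.

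The E-box CACGTG, the site bound by MYC and related factors, was searched in the promoters of the members, since many of them moved together. Promoter sequences came from RefSeq (build GRCr8), reach from 250 bases before to 50 bases after the start of each gene, and matched 50 of 56 members by symbol. The motif reads alike on both strands and does not overlap the other motif searched. It was present in 14 of 37 promoters of members with a role (37.8%), in 3 of 13 promoters of name matches (23.1%), in 117 of 1134 promoters of other genes of the same listing (10.3%) and in 2148 of 33469 promoters in the whole table (6.42%). In 12 of these 14 promoters (85.7%) the centre of a motif lay within 50 bases of the start, compared with 788 of the 2148 (36.7%). The palindrome of ZBTB33 (Kaiso) was present in 2 of the 37 (5.41%), those of Nol11 and Nol9, in 1 of 13 name matches (7.69%, Wdr77), in 0.794% of the other genes of the listing and in 0.373% of the table. A match is a description of the sequence and does not show that a factor bound there. The sites of the 9 members with a role and an E-box that passed at the high dose follow with up to the same number of flanking bases on each side, together with that of Rrp8, which did not pass. Capitals mark the E-box, and all lines run 5′ to 3′ on the strand of the gene.
Pes1, chr14:83074279-83074318, plus strand: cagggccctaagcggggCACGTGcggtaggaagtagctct
Tsr1, chr10:60258793-60258832, plus strand: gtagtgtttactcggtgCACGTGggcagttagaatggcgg
Rpf2, chr20:45205971-45206010, minus strand: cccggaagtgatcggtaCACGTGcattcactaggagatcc
Bysl, chr9:20880356-20880390, plus strand: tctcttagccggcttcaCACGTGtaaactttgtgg
Noc3l, chr1:245997668-245997707, minus strand: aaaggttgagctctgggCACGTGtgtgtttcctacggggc
Nop2, chr4:159618987-159619015, plus strand: gaactcttccccaagtgCACGTGgagcgg
Rrp1, chr20:10260547-10260586, plus strand: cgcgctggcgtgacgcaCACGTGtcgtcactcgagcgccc
Utp4, chr19:51702199-51702238, plus strand: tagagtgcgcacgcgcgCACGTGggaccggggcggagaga
Rrp7a, chr7:116153078-116153114, minus strand: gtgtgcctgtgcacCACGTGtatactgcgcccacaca
Rrp8, chr1:169500438-169500477, minus strand: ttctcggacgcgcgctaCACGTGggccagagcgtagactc

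Of the 14 members with a role and an E-box, 8 rose with the high dose, 1 fell and 5 did not pass, with a median log2 fold change of 0.13. Of the 23 members with a role and a promoter but no E-box, 14 rose, 3 fell and 6 did not pass, with a median of 0.16. The difference between these sets was not tested. Over all genes 37.8% were called higher with the high dose and 34.4% lower. Of the name matches with an E-box, Wdr77 rose, Wdr81 fell and Gnl1 did not pass. The genes with the largest rise, Nop58 and Gar1, held none in this window. Their promoters are shown whole beside that of Pes1, with the E-box of Pes1 in capitals, to let the sequences be compared.
Nop58, chr9:68614824-68615123, plus strand: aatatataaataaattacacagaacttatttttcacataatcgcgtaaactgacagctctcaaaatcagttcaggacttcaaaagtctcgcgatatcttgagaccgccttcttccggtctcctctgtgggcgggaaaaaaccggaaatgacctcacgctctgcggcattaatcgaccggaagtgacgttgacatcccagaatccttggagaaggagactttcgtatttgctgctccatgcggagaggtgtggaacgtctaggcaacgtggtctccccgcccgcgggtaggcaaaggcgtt
Gar1, chr2:221056700-221056999, minus strand: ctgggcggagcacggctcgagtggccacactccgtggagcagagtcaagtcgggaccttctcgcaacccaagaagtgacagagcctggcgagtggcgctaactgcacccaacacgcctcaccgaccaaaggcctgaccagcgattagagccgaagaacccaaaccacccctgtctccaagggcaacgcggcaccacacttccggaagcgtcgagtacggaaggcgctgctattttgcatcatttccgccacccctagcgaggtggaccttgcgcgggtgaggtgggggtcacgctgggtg
Pes1, chr14:83074096-83074395, plus strand: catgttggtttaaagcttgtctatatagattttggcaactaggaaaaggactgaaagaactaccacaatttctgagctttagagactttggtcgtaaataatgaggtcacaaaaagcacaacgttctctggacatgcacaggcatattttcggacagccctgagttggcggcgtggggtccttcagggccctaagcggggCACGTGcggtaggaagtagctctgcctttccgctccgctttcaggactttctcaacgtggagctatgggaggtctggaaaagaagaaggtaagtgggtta

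At the low dose few members moved. Only 4 of 56 passed (7.14%), against 28.4% of all genes (17.9% higher and 10.5% lower). They were Gar1 (1.28-fold higher, log2 0.36 ± 0.10, adjusted p = 0.00729), Nop58 (1.21-fold, log2 0.28 ± 0.10, adjusted p = 0.0363), Wdr1 (1.17-fold, log2 0.22 ± 0.05, adjusted p = 0.000865) and Ddx51, which was lower (log2 -0.11 ± 0.04, adjusted p = 0.0289). At the high dose, against the same vehicle livers, their log2 values were 0.79, 0.81, 0.48 and -0.25. None of the 15 small-subunit members passed at the low dose, and their estimates ran from -0.10 to 0.14. Without scaling factors 28 members were called, all higher, in a setting where 94.9% of all calls were higher and the median of all genes was 0.17.

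The direct contrast of high and low dose called 28 of 56 members (50.0%), against 64.8% of all genes (33.7% higher and 31.1% lower). Without scaling factors it called more members, and Ddx3, Ddx17, Wdr33, Polr1b and Rrp8 changed sign, as given in the last section. With litter as a replicate block it called 23, and Nol8, Nop14, Rrp1b, Ddx39b and Wdr5b no longer passed (adjusted p from 0.123 to 0.266). Of the 41 with a role 17 were higher at the high dose and 2 lower. Pes1 (log2 0.35 ± 0.04, adjusted p = 7.72e-11), Nop58 (0.53 ± 0.10, adjusted p = 3.87e-06), Nop56 (0.51 ± 0.10, adjusted p = 1.75e-05) and Gar1 (0.44 ± 0.10, adjusted p = 0.000165) were all higher than at the low dose. Nolc1 and Ddx21, with log2 differences of 0.07 ± 0.08 and 0.17 ± 0.09, did not pass (adjusted p = 0.459 and 0.108).

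The high-dose pattern was then examined cohort by cohort. Against the vehicle males of its own cohort, the high dose called 20 of 56 members in cohort A, 12 each in B and C and 23 in D, where 49.2%, 55%, 47.9% and 51.1% of all genes were called. These counts moved when single necropsy dates were left out and were higher without scaling factors, as given in the last section. The low dose called 0, 0, 1 and 0 members, where 6.28%, 6.44%, 10.3% and 7.4% of all genes were called; the member in cohort C was Gar1 (log2 0.59 ± 0.22, adjusted p = 0.0900). Of the 35 members called over all cohorts, 31 had the same sign in each of the 4 cohorts, 7 passed in every cohort and 6 in none. These are 88.6%, 20% and 17.1% of the 35, beside 88.8%, 41.8% and 6.31% of all genes called over the cohorts, and both sets were chosen by a fit to the same cohorts. With litter as a replicate block, cohort D called 14 members in place of 23 and Gar1 no longer passed at the low dose in cohort C. The 7 were Nop58, Gar1, Pes1, Tsr1, Ddx51, Wdr1 and Wdr33. The log2 fold change of Nop58 was 0.81 ± 0.20 in cohort A, 0.81 ± 0.20 in B, 0.61 ± 0.21 in C and 1.004 ± 0.20 in D, and that of Gar1 was 0.72 ± 0.20, 0.68 ± 0.20, 0.82 ± 0.22 and 0.95 ± 0.21. The differences among the 4 cohorts beyond the F0 contrast were not tested. Within each of the 4 necropsy dates, 20 of the 23 members that rose and 2 of the 4 that fell kept their sign. These members were chosen by a fit to the same dates, so this is a description and not a replication. The share of all called genes that kept their sign is not given. Nop58 was higher by log2 0.88, 0.65, 0.75 and 0.71.

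**Figure D3:**
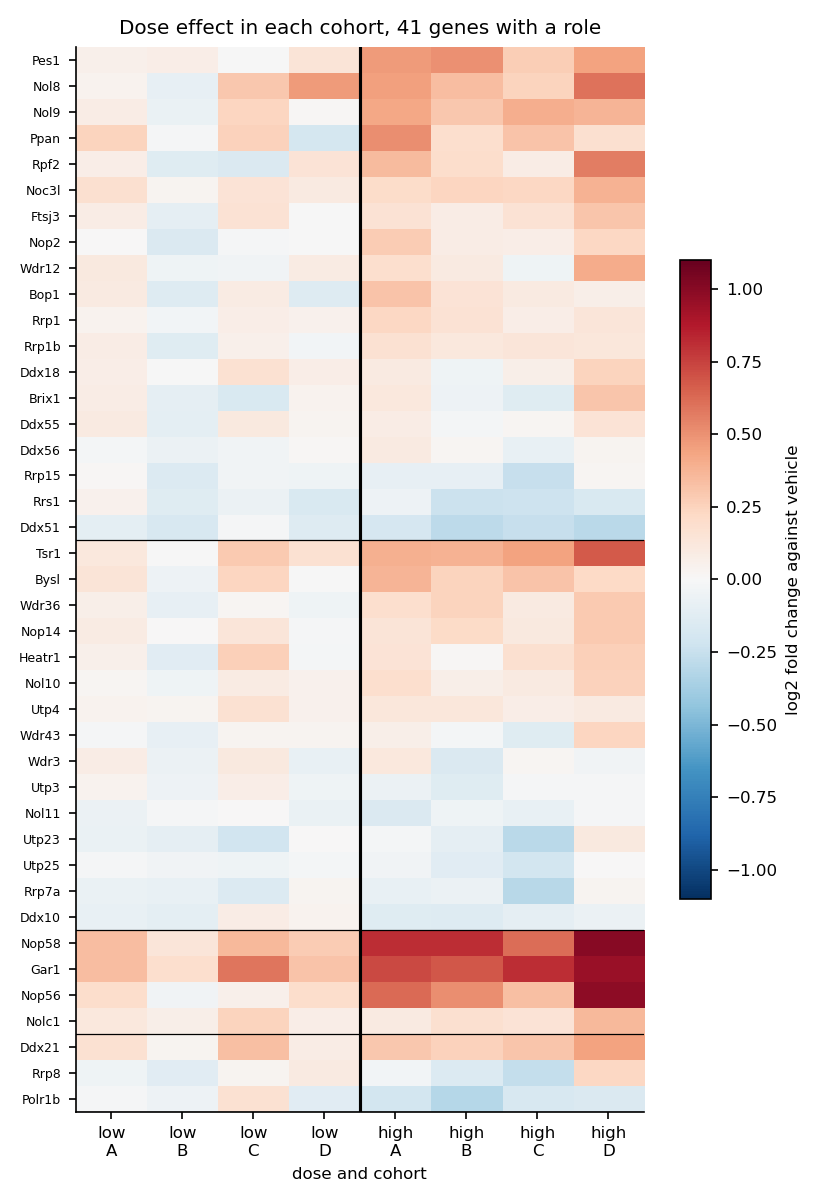
Log2 fold change against the vehicle males of the same cohort (color scale) for the 41 members with a role (rows, grouped by large subunit, small subunit, snoRNP and rRNA transcription from top to bottom) at the low and high dose in cohorts A to D (columns). The snoRNP rows Nop58 and Gar1 are red in all 4 high-dose columns, from 0.61 to 1.004, and Ddx51 is blue in all 4.

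Whether F0 treatment changed the response to dose was tested as the difference between cohorts C and D and cohorts A and B. For the high dose 0 of 56 members differed and 0% of all genes did, and for the low dose 0 of 56 members did, against 0.716% of all genes (edgeR). Without adjustment, 0 members had p under 0.05 in either test, with no share of all genes given, and DESeq2 also called 0. For Nop58 the high-dose effect differed by log2 -0.01 with a 95% interval of -0.40 to 0.39, and for Gar1 by 0.18 with an interval of -0.23 to 0.58. Pes1 was estimated more closely, at -0.13 with an interval of -0.30 to 0.04. Over the 41 members with a role the intervals lay between -0.46 and 0.58 for the high dose and between -0.45 and 0.85 for the low dose. What could be detected thus differed between members, with SEs of 0.078 for Ddx51 and 0.20 for Nop58 at the high dose.

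High-dose livers varied more among themselves than vehicle livers. The within-group SD of log2(CPM + 1) was larger at the high dose than in vehicle livers for 38 of the 41 members with a role (92.7%), compared with 62.6% of 15817 genes with a mean count over 10 in a group. The median SD of the 41 was 0.214 in vehicle, 0.202 in low-dose and 0.309 in high-dose livers, beside 0.232, 0.222 and 0.278 for all these genes. Nop56 (SD 0.544) and Nop58 (SD 0.539) varied most at the high dose among members with a role, from 0.238 and 0.237 in vehicle livers. The mean log2(CPM + 1) over the 41 members had an SD of 0.141 among high-dose livers of cohort A, 0.278 in B, 0.155 in C and 0.443 in D, against 0.108 to 0.123 in the vehicle groups.

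The spread was widest in high-dose males of cohort D, where the mean over the 41 members was 4.69, 4.06, 3.90, 4.65, 4.60, 3.61 and 3.86 in replicates 1 to 7. Replicates 1, 4 and 5 lay above every vehicle liver, whose highest value was 4.45, and replicate 6 lay below every vehicle liver, whose lowest was 3.84. The same 3 livers had the highest Nop58 of their group, with 58.9, 47.2 and 58.6 CPM, whereas the other 4 had 18.1, 17.1, 14.2 and 23.9 CPM. Their scaling factors were also the highest of the group, at 1.36, 1.29 and 1.92 beside 0.947 to 1.18. High means were not particular to cohort D. In cohort B replicates 1 and 4 also lay above every vehicle liver (4.63 and 4.68). They had 56.7 and 52.6 CPM of Nop58 and scaling factors of 1.39 and 1.57. In cohort A replicates 2, 4, 5 and 6 did (4.59, 4.56, 4.54 and 4.50), with scaling factors of 1.28, 1.40, 1.21 and 1.45. The highest high-dose liver of cohort C had 4.23. Whether the scaling factor had a part in these values was not tested.

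**Figure D4:**
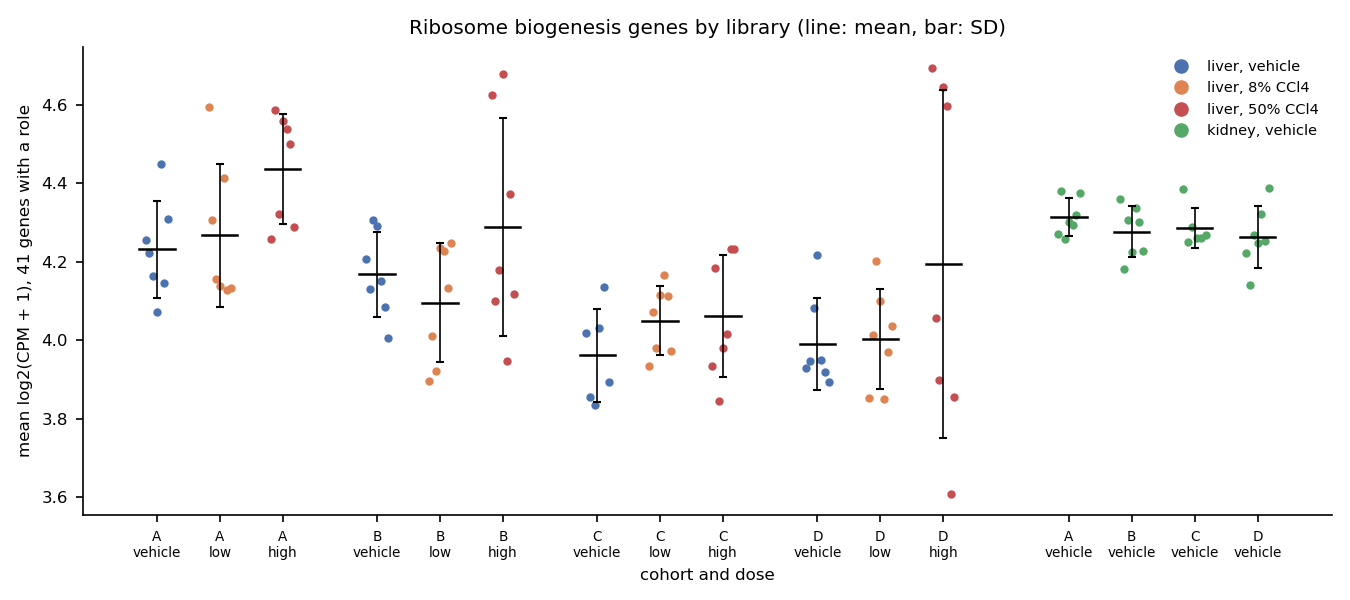
Mean log2(CPM + 1) over the 41 members with a role (y axis) in each library by cohort and dose, with the group mean as a line and the SD as a bar; kidney libraries were scaled among themselves, so liver and kidney levels are not to be compared here. High-dose livers of cohort D run from 3.61 to 4.69, whereas the 27 kidneys lie between 4.14 and 4.39.

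The effect of ancestry was then taken over all doses. By the contrast that defined the list, the F0 difference in liver, the 41 members with a role ran from -0.44 to -0.07 log2 (median -0.21), all below 0, and the 15 name matches from -0.85 to 0.24. These values chose the members and carry no test. For F1 treatment in liver, 0 of 56 members passed, against 0.2% of all genes, and DESeq2 also called 0. Without adjustment 3 had p under 0.05. The share of all genes under that value is not given, so whether 3 is many cannot be judged. The smallest adjusted p was that of Rrp8 (log2 -0.19 ± 0.07, adjusted p = 0.317), followed by Ddx39b (0.12 ± 0.06, adjusted p = 0.445) and Wdr77 (-0.13 ± 0.06, adjusted p = 0.456). Intervals for the 41 members with a role lay between -0.35 and 0.18.

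In kidney the members did not differ by ancestry at the threshold. Of 55 members, Wdr33 left aside, 0 passed for F0 treatment, against 0.0109% of all 18374 genes tested, and DESeq2 called 0. Without adjustment 7 had p under 0.05. The share of all genes under that value is not given, so whether 7 is many cannot be judged. The 41 members with a role had a median log2 difference of -0.02 between kidneys with and without a treated F0 grandsire, within -0.17 to 0.19, and 12 of them had an estimate above 0. Utp4, a component of the small-subunit processome, had the smallest adjusted p (log2 -0.17 ± 0.05, adjusted p = 0.363), followed by Wdr24, Ddx21, Heatr1 and Wdr5 with adjusted p from 0.471 to 0.509. Among the snoRNP members the 95% interval ran from -0.17 to 0.06 for Nop56 and from -0.13 to 0.18 for Gar1. Those of Nolc1 (-0.15 to -0.01, adjusted p = 0.509) and Nop58 (-0.164 to -0.0028, adjusted p = 0.579) lay below 0, and neither passed after adjustment. These intervals come from the SE alone and are narrower than the test. Of the 4 snoRNP members 1, Nolc1, had p under 0.05 without adjustment, so the interval of Nop58 does not show a difference. For F1 treatment 0 of 56 members and 0% of all genes passed, and DESeq2 called 0. Without adjustment 2 members had p under 0.05, again with no share of all genes given. Wdr33 (log2 -0.20 ± 0.07, adjusted p = 0.635) and Wdr13 (0.19 ± 0.07, adjusted p = 0.662) came first.

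Wdr33, which was listed from kidney, is described by its levels. Kidneys of cohort A ran from 77.0 to 94.1 CPM with a median of 87.0, those of B from 66.1 to 81.5 (median 77.7), those of C from 52.0 to 87.0 (median 72.6) and those of D from 51.9 to 72.5 (median 59.2). The F0 difference was -0.31 log2. This difference chose the gene, so neither it nor the levels by cohort carry a test. In vehicle livers the medians of the 4 cohorts lay between 28.8 and 31.5 CPM.

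Kidney and liver of the same 27 vehicle males were then compared after scaling the 54 libraries together. Organ and library preparation cannot be told apart in this contrast. At an adjusted p under 0.1, 53 of 56 members differed, where 85.6% of all 19292 genes did. With an absolute log2 fold change over 1 added, 8 members passed (14.3%), against 46.6% of all genes (27.7% higher in kidney and 19% lower). Of the 41 members with a role, 33 were lower and 5 higher in kidney at the adjusted p alone, where 52.7% of all calls were higher. The median log2 difference of the 41 was -0.54, beside 0.07 for all genes. Without scaling factors the median of all genes moved to 1.02 and that of the 41 to 0.43, so the sign of the difference rests on the scaling. With both criteria, 0 of the 41 were then lower in kidney and 8 higher, and 82.2% of all calls at the adjusted p alone were higher. DESeq2's size factors left 4 lower and 0 higher with both criteria, beside 6 and 0 with TMM. Above the median of all genes stood 5 of the 41 with the factors and 7 without.

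**Figure D5:**
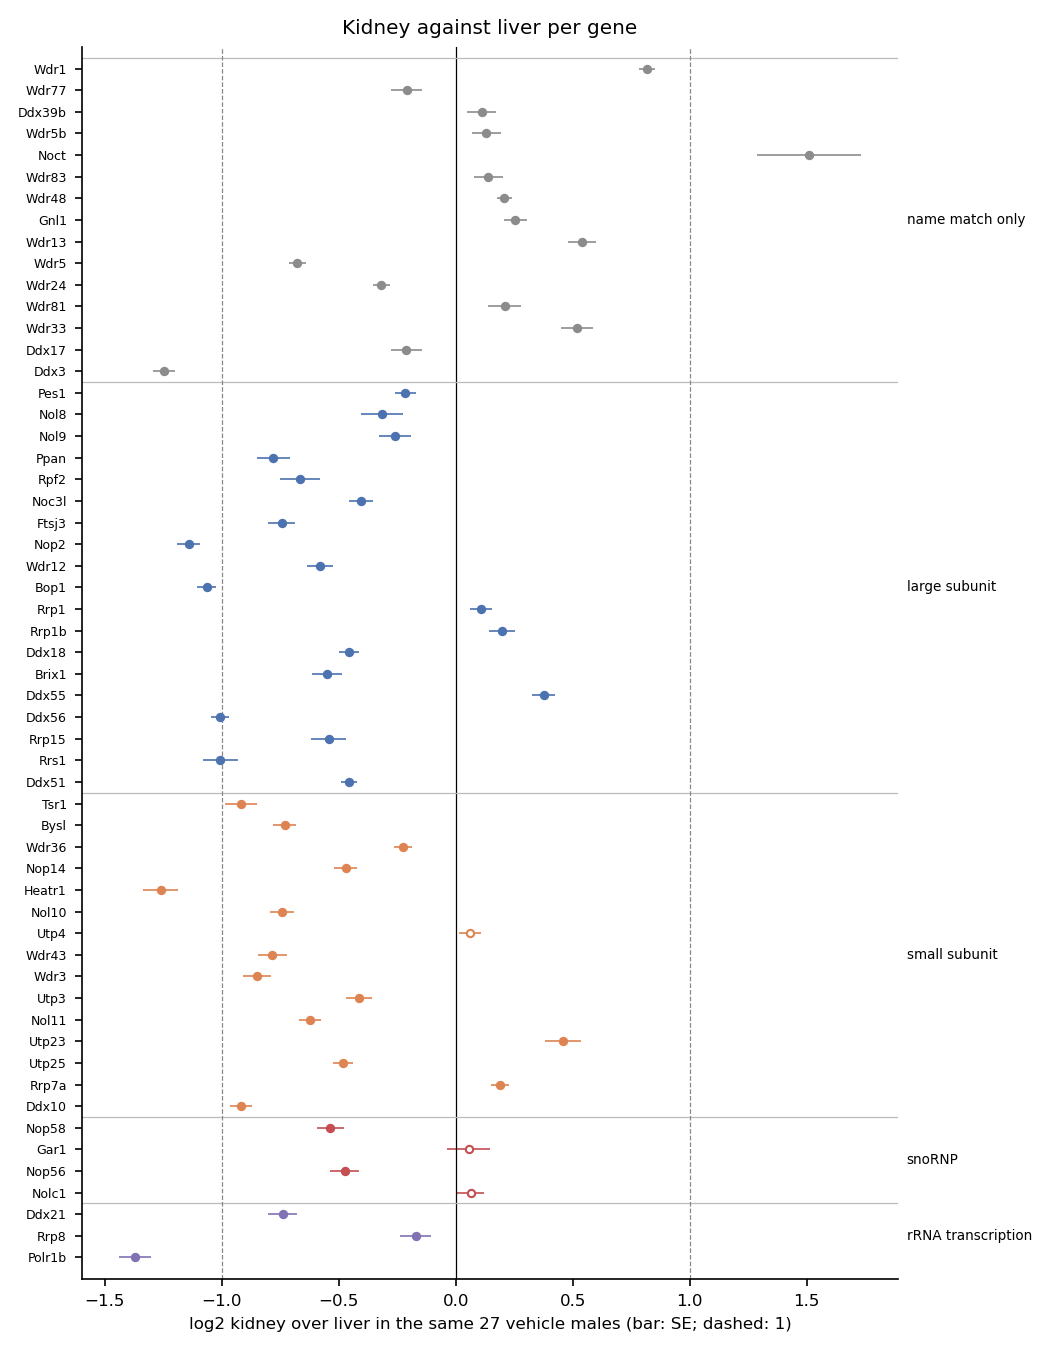
Log2 difference between kidney and liver (x axis, kidney minus liver, bars show the SE) for each of the 56 members in 27 vehicle males, grouped and colored by role, with dashed lines at -1 and 1 and open points where the adjusted p did not pass. Most members with a role lie left of 0, with Polr1b at -1.37, and Noct lies farthest right at 1.51.

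The values that follow are on the TMM scale and are subject to that limit. Polr1b ran from 8.00 to 33.0 CPM in liver (median 22.1) and from 5.76 to 11.1 in kidney (median 8.15), and was lower in kidney in 26 of 27 males (log2 -1.37 ± 0.07, adjusted p = 3.81e-18). Heatr1, a processome factor, had medians of 32.4 CPM in liver and 14.4 in kidney and was lower in 26 of 27 males (log2 -1.26 ± 0.07). Nop2, an rRNA cytosine methyltransferase, had medians of 35.4 and 15.9 CPM (log2 -1.14 ± 0.05), and Bop1 had 36.2 and 17.1 (log2 -1.06 ± 0.04, adjusted p = 1.12e-21). Both were lower in 27 of 27 males. Bop1 ran from 28.01 to 47.5 CPM in liver and from 15.3 to 21.5 in kidney, in a contrast where 85.6% of all genes passed the adjusted p. The share of all genes with ranges apart, or lower in every male, is not given. Ddx56 and Rrs1 completed the 6 members with a role that passed both criteria, at -1.01 each. The other 2 were Ddx3 (log2 -1.25 ± 0.05) and the rhythmically expressed gene Noct, which was higher in kidney (log2 1.51 ± 0.22) in 25 of 27 males.

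Of the snoRNP genes, Gar1 and Nolc1 had log2 differences of 0.06 ± 0.09 and 0.06 ± 0.06 and did not pass, while Nop56 (-0.47 ± 0.06) and Nop58 (-0.54 ± 0.06) were lower in kidney on this scale. In TPM all 4 had higher medians in kidney, with 12.2 in liver and 15.6 in kidney for Nop56, 11.2 and 14.9 for Nop58, 3.80 and 6.93 for Gar1 and 11.2 and 20.8 for Nolc1. Pes1 had a log2 difference of -0.21 ± 0.04 on the TMM scale, but medians of 16.6 TPM in liver and 27.5 in kidney. On the TMM scale Utp23 (0.46 ± 0.08), Ddx55 (0.37 ± 0.05), Rrp1b (0.20 ± 0.06), Rrp7a (0.19 ± 0.04) and Rrp1 (0.11 ± 0.05) were the 5 members with a role that were higher in kidney.

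Levels were finally compared between members as TPM, which scales every library to a common total after correcting for transcript length. In vehicle livers the member medians ran from 0.882 to 102 TPM with a middle value of 7.83, and in kidneys from 3.21 to 139 with a middle value of 10.9. This is opposite to the organ contrast on TMM-scaled counts: 32 of the 41 members with a role had a higher median TPM in kidney, and TPM carries no scaling factor. Name matches held the first 5 places in liver, led by Ddx17 (102 TPM) and Ddx39b (47.3 TPM). Among members with a role, Ddx21 (16.8 TPM), Pes1 (16.6 TPM), Tsr1 (15.3 TPM) and Rrs1 (14.3 TPM) came first in liver, and Rrp8 (2.21 TPM) last. Over the 27 males Ddx21 ran from 4.25 to 23.4 TPM in liver, Pes1 from 10.3 to 19.98, Tsr1 from 5.17 to 21.2 and Rrs1 from 8.67 to 26.8, so these neighbours overlapped and their order lies within the spread between males. In kidney Pes1 (27.5 TPM) and Nolc1 (20.8 TPM) were the highest members with a role.

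Other genes of the pathway could be followed only where the same listing gave them a symbol, so they too were in it for their F0 difference. Of 17 further genes of RNA polymerase I transcription 3 had an identifier, and with the high dose Cd3eap, a subunit of the polymerase, rose (log2 0.45) and Rrn3, its initiation factor, fell (-0.14). Of 9 further snoRNP genes 3 had one, and the helicase gene Ruvbl1 rose (0.16). Of 33 small-subunit genes 5 had one, of which Nob1 rose (0.13) and Dcaf13 (-0.36) and Mphosph10 (-0.42) fell. Of 34 large-subunit genes 5 had one, and the export adapter gene Nmd3 (0.23) and Rsl24d1 (0.15) rose. Of 6 regulators 2 had one, Rrn3 and Max, the partner of MYC, which fell (-0.21). At the low dose Cd3eap alone of these passed (log2 0.32).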

How the data were processed

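The deposited values are estimated counts per gene, made by the authors with Salmon 0.14.0 on stranded mRNA libraries against Ensembl release 100 of the rat and summarised with tximport in R 3.5.0, as whole numbers that are not normalized, with 1 table for liver and 1 for kidney. The authors also deposited average transcript lengths, which were used for TPM and for 1 alternative. Here a gene was kept if its counts summed to more than 10 in any group, and was tested in edgeR 4.0.16 (quasi-likelihood F test, TMM factors, R 4.3.3), with Benjamini-Hochberg adjustment over all genes tested and a threshold of 0.1. Dose was tested as contrasts of 12 group means. F1 treatment in liver was tested with F0, F1 and F2 treatment as factors, and F0 and F1 treatment in kidney with both as factors. The organ contrast held 54 libraries with the animal as a block and also required an absolute log2 fold change over 1. SEs were taken from the estimate and its F value. The 95% intervals were taken from the SE by a normal approximation, which is somewhat narrower than the F test. CPM were TMM-scaled within each organ, or over both organs together for the organ contrast. Scripts were tested on simulated data.

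Males came from separate animals. Litters, sires and necropsy dates came from the study's pedigree and necropsy records and not from the sample labels. Deviations from the group mean correlated with a median of 0.128 in 68 littermate pairs (lowest -0.318, highest 0.371, 41 over 0.1). In 506 other pairs the median was -0.003 (lowest -0.538, highest 0.658, 109 over 0.1). Alternatives were DESeq2 1.42.0, its size factors, limma 3.58.1 with the F0 sire as a block, transcript lengths as offsets, other filters and thresholds, date and litter blocks and leaving out each necropsy date. The members, lists and motifs were chosen with earlier results of these data known. Named genes were up to 5 members per role group and dose comparison by absolute log2 fold change, up to 5 by p in the other comparisons, members opposed to their group and the member listed from kidney. Genes named beyond these were chosen after their values were seen. Symbols came from the study's listing, so genes outside it were not analysed here.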

Additional observations from a re-analysis of the deposited data

Results flagged for a closer look

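Of 16 groups of liver or kidney libraries examined, 1 held a library far from the others, and chance gives about 1 such group in 20. Replicate 1 of the vehicle kidneys of cohort C had a mean log2(CPM + 1) of 4.39 over the 41 members with a role, and the nearest other kidney of its group had 4.29. The gap was 0.721 of the range of the group, above the critical value of Dixon's test at 95% for 6 libraries.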

How the results depend on the processing

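Counts of members called were recomputed under each alternative, of which library totals with no scaling factor, leaving out single males and the organ contrast with no fold threshold were chosen after seeing the data. Of the recomputed counts, 225 stayed within 1.5 times the reported one and 37 did not. With library totals the calls were 28 for the low dose, 56 for the high dose, 54 for high against low, 54, 52, 49 and 54 for the high dose in cohorts A to D, 1, 3 and 1 for the low dose in cohorts A, C and D, and 18 between organs, all higher in kidney, of which 1 was among the 8 reported. In that setting 94.9%, 89.3% and 82.2% of the calls over all genes at the adjusted p alone were higher for the low dose, the high dose and the organ contrast. The rule with an absolute log2 fold change over 1 called 0 members at either dose over the 4 cohorts together, and the organ contrast without it 53. For the low dose, cohort B called 1 with DESeq2 and 1 with only the 2 groups compared, and cohort D 1 with only the 2 groups. Cohort C called 0 with no filter, with an adjusted p under 0.05, with only the 2 groups, with either replicate block and without the male of cohort C that stood apart, and 2 without the cohort D male with the highest scaling factor. For the high dose, cohort D called 15 with only the 2 groups. With litter as a replicate block it called 14, and the counts over all cohorts were 4 for the low dose, 30 for the high dose and 23 for high against low. Leaving out each necropsy date gave 12 to 19 calls for the high dose in cohort A, 7 to 16 in B, 4 to 11 in C and 14 to 26 in D, and for the low dose 0 to 1 in B and 0 to 5 in C. The lowest high-dose counts came without dates 2 and 4 in A, date 1 in B and C, and dates 1 and 3 in D. The tests of F0 by dose, of F1 in liver and of F0 and F1 in kidney called 0 members in every alternative run. Fewer libraries enter each fit that leaves out a date; the cause of the other shifts was not tested.

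Of 2104 refits of 136 named values, 16 changed sign while passing the threshold in at least 1 of the 2 fits, all with library totals. Values that passed in neither fit also changed sign there and under other alternatives, and are not counted. The log2 values became 0.056 for Ddx51 at the low dose, and 0.20 for Ddx3, 0.21 for Ddx17, 0.37 for Wdr33, 0.42 for Polr1b and 0.60 for Rrp8 at the high dose. For high against low they became 0.14, 0.10, 0.16, 0.26 and 0.44 in the same order. In single cohorts at the high dose they became 0.22 for Ddx3 in A, 0.028 for Ddx3 and 0.093 for Ddx17 in B, and 0.24 for Rrp7a and 0.29 for Ddx51 in C. Another 67 lost the threshold and 50 gained it with the same sign.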
